A study of Mus musculus with 2 samples.

Results

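The 7 aquaporin genes Aqp1, Aqp2, Aqp3, Aqp4, Aqp6, Aqp7 and Aqp11 and the vasopressin V2 receptor gene Avpr2 were followed across the cell types of post-ischemic mouse kidney. These 8 genes were taken by symbol from the 32285 genes in the files, and each was found. Single-cell RNA sequencing was done on 1 control kidney from a mouse given saline and on 1 JPI-289 treated kidney, the dose being 100 mg/kg. JPI-289 inhibits poly (ADP-ribose) polymerase, an enzyme of the DNA damage response. Both mice were C57BL/6 males of 9 weeks that had bilateral renal ischemia-reperfusion injury, were injected into the peritoneum just ahead of reperfusion, and were sacrificed 24 h after it. With 1 library in each group there was no replicate and no test between the conditions, so every value compares these 2 libraries.

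Aquaporins are membrane channels for water, and some of them, the aquaglyceroporins, also pass glycerol. In the kidney, Aqp1 lets water leave the proximal tubule (PT), the descending thin limb and the descending vasa recta without hormonal control. In principal cells of the collecting duct, vasopressin binds the V2 receptor, cyclic AMP rises, and Aqp2 moves to the apical membrane while Aqp3 and Aqp4 form the basolateral exit.

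Of the genes on which the account of the principal cells turns, Avpr2, Aqp2 and Aqp3 are shown with the 250 bases before their transcription start, from RefSeq on GRCm38.p6, 5′ to 3′ on the strand of the gene. No window is shown for Aqp4. Capitals mark matches on either strand to the cyclic AMP core motif TGACG, the GATA motif AGATAA or the TATA motif TATAAA.
Avpr2 (chrX:73891852-73892101, plus strand): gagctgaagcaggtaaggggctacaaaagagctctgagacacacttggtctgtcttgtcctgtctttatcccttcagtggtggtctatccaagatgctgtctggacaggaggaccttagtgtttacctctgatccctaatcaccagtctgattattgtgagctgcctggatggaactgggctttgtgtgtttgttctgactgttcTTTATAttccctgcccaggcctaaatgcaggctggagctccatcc
Aqp2 (chr15:99578806-99579055, plus strand): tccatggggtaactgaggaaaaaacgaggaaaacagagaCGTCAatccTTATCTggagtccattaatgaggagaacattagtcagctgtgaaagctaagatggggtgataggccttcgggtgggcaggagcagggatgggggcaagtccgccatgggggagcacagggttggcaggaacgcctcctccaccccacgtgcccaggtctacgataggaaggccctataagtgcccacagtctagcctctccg
Aqp3 (chr4:41098184-41098433, minus strand): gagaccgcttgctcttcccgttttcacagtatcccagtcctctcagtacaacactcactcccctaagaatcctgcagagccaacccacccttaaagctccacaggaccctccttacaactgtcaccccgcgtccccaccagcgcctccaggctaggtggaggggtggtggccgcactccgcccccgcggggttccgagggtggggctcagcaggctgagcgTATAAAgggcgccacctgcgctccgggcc
The window of Aqp2 held a core motif, as did 17.8% of 32851 RefSeq windows of the same length, and a GATA match, as did 9.99%, and these matches did not overlap. Those of Aqp3 and Avpr2 each held a TATA match, as did 12.4%. The full cyclic AMP element TGACGTCA, which contains the core motif, was in 1.55% of all windows and the AP-1 motif TGANTCA in 6.75%, and neither was in the windows of the 7 members that had one. A match is a run of letters and not a site known to be bound.

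In the annotation of GRCm38, Aqp2 (ENSMUSG00000023013, chr15:99579055-99584547) and Aqp6 (ENSMUSG00000043144, chr15:99601400-99605477) lie near each other on the plus strand, and Aqp7 (ENSMUSG00000028427, chr4:41033074-41048139) and Aqp3 (ENSMUSG00000028435, chr4:41092722-41098183) on the minus strand. Aqp1 (ENSMUSG00000004655, chr6:55336432-55348555) lies on the plus strand and Aqp11 (ENSMUSG00000042797, chr7:97724006-97738289) on the minus strand. Avpr2 (ENSMUSG00000031390, chrX:73892102-73895502, plus strand) overlaps L1cam and Arhgap4 on the other strand, and Aqp4 (ENSMUSG00000024411) overlaps AC133525.2 there. No member overlaps another counted gene on its own strand.

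The control library held 38328760 unique molecular identifiers (UMIs, each standing for 1 captured transcript) and the JPI-289 library 35548396. Called cells numbered 3752 and 5041, with a median of 2054 and 1866 UMIs, and 23 cell barcodes occurred in both libraries. Cells were clustered without the members and named "-like" from marker lists that hold none of them, so the classes did not use the genes described. Levels are UMIs per 1000000 UMIs of a class (CPM), and ratios are log2 ratios of those levels, JPI-289 over control. Intervals in parentheses are 95% intervals for counting error only, exact Poisson for levels and exact binomial for ratios and shares of cells. Fewer transcripts per cell and another mixture of cells within a class cannot be told apart in these sums.

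Most members were concentrated in a few classes, and where the libraries differed by at least 2-fold the JPI-289 library was the lower one. A member was compared where it had at least 20 UMIs over both libraries in a class, which gave 24 values over 10 classes. Of these, 11 were at least 2-fold lower in the JPI-289 library and 0 at least 2-fold higher. The counting interval lay below 0 for 13, above 0 for 1 and held 0 for 10. No share of all genes by interval is given, so these interval counts have no background beside them. Some of the 24 values come from levels no higher than in cells that should lack the gene, as given below. The share of all genes past 2-fold in the same class is given with each class.

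**Figure D1:**
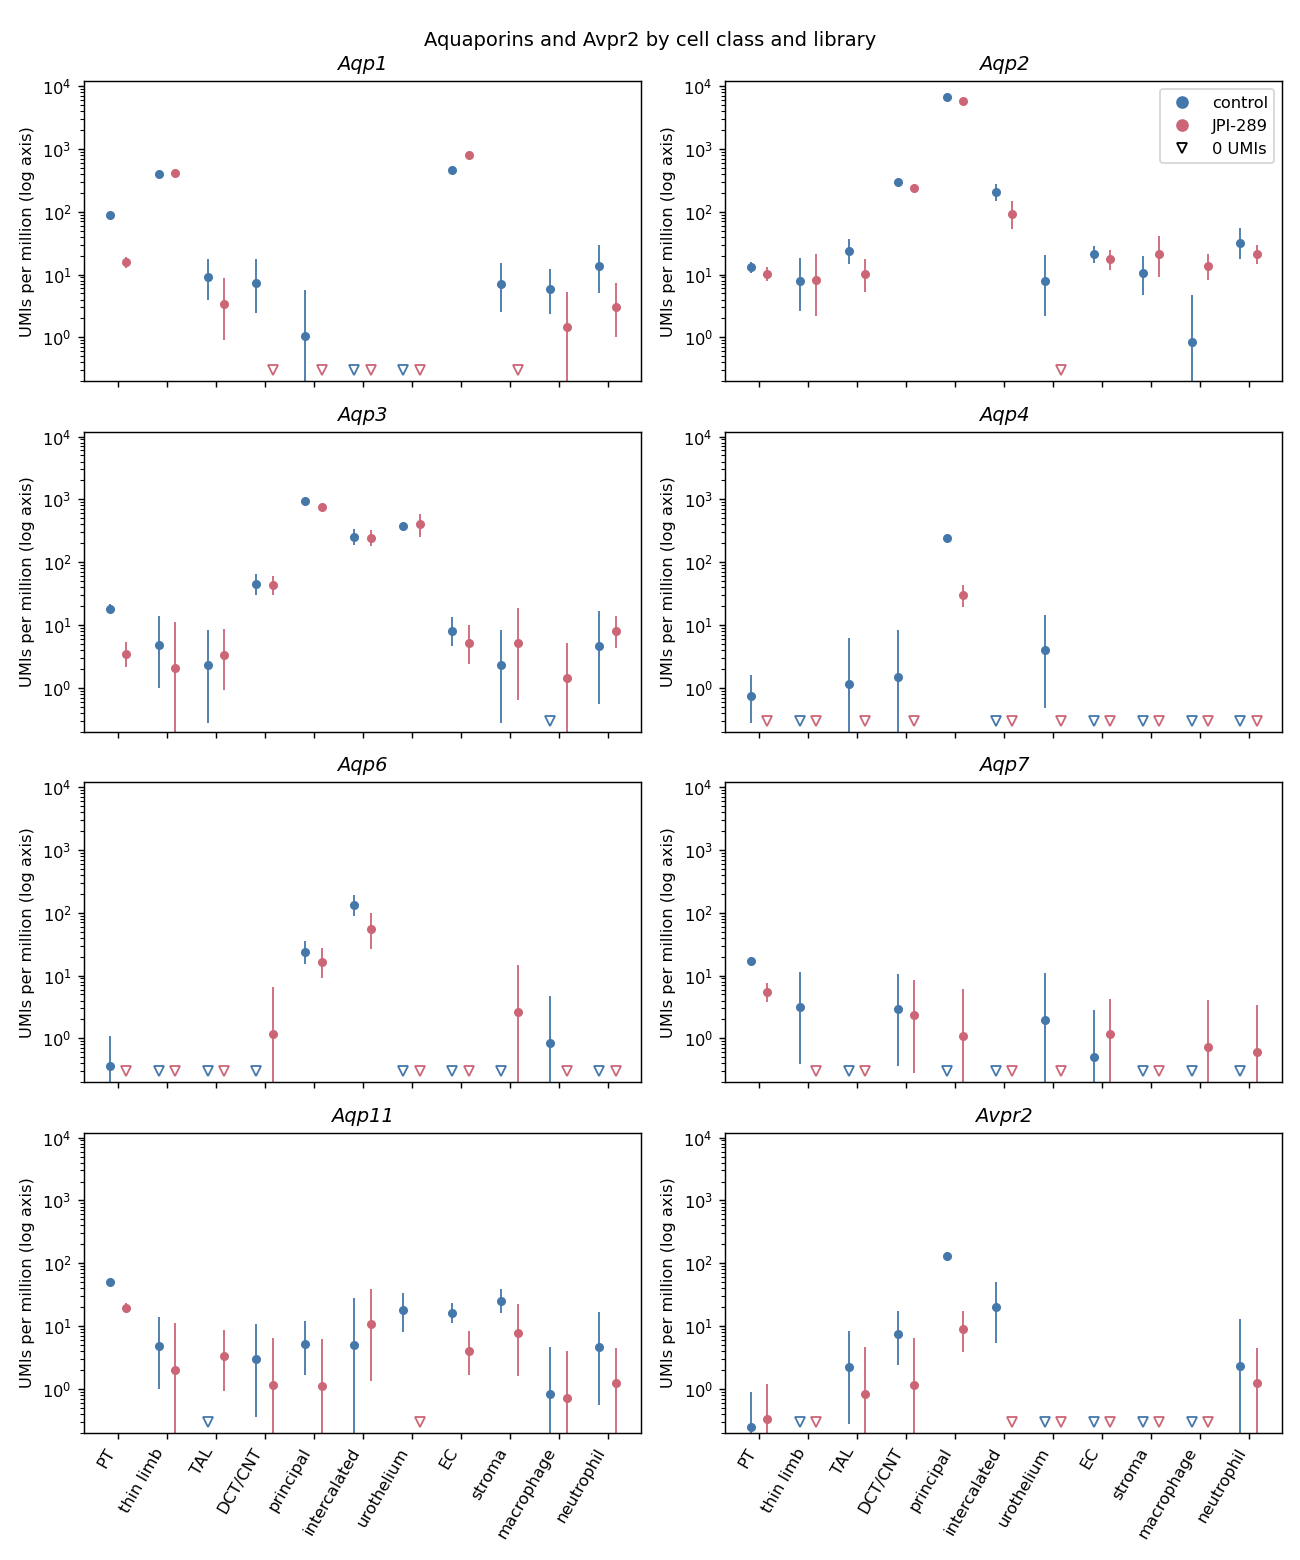
CPM (log axis) of each gene in the marker-defined classes, control in blue and JPI-289 in red, with 95% counting intervals and triangles for 0 UMIs. Aqp2, Aqp3, Aqp4 and Avpr2 are highest in principal-like cells, Aqp1 in endothelial (EC-like) and thin limb-like cells, Aqp6 in intercalated-like cells and Aqp7 in PT-like cells.

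In the collecting duct, the receptor and the basolateral channel Aqp4 had the lowest ratios of all members, while the vasopressin-regulated channel Aqp2 was at a similar level in both libraries. Principal-like cells, which carry the vasopressin response, were 67 and 85 in the control and JPI-289 libraries, with a median of 10209 and 9840 UMIs a cell. Of the 5 members compared in them, 2 were at least 2-fold lower, against 13.5% of 7791 genes, and 0 at least 2-fold higher, against 6.73%.

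Avpr2, the receptor that raises cyclic AMP, had 125 UMIs in control and 8 in JPI-289 treated cells of the principal-like class. Its level was 129 (107 to 154) and 8.83 (3.81 to 17.4) CPM, a log2 ratio of -3.79 (-5.11 to -2.85). Avpr2 was detected in 35 of 67 and 6 of 85 cells, 52.2% and 7.06%, and after each cell was thinned to 1000 UMIs in 7.46% and 1.18%. Thinning left out cells under 1000 UMIs, 0 and 0 of the principal-like, 456 and 469 of the PT-like and 19 and 72 of the neutrophil-like cells. Of the genes measured in principal-like cells, 0.193% had a lower ratio. In the other named classes Avpr2 was sparse, with 5 UMIs in control and 1 in JPI-289 cells of the distal convoluted and connecting tubule (DCT/CNT-like). Intercalated-like cells held 4 and 0. Principal-like cells held 89.9% of the Avpr2 UMIs of control cells and 38.1% of those of JPI-289 cells, 8 of 21. A shallow unnamed cluster, described below, held 7 of these 21.

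Aqp2, the apical channel that vasopressin inserts, had 6474 UMIs in control and 5319 in JPI-289 treated cells of the principal-like class. Its level was 6688 (6526 to 6853) and 5868 (5711 to 6028) CPM, a log2 ratio of -0.19 (-0.24 to -0.14). Single cells spread over a far wider range than the libraries differed. Per 10000 UMIs of the cell, Aqp2 ran from 0 to 245 with a median of 42.5 in control cells, and from 0 to 195 with a median of 38.95 in JPI-289 cells. It was detected in 63 of 67 and 75 of 85 cells, and after thinning in 79.1% and 81.2%. Neutrophil-like cells, which should lack Aqp2, held it in 3.95% and 3.09% after thinning, at median depths of 1973 and 2036 UMIs.

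Aqp3, the basolateral channel for water and glycerol, had 916 and 692 UMIs in principal-like cells, 946 (886 to 1009.5) and 763 (708 to 822) CPM. Its log2 ratio was -0.31 (-0.45 to -0.17), and the median cell held 6.45 and 4.99 per 10000, with highest cells at 58.5 and 31.6. The cells of both libraries overlapped over most of their range. Aqp3 was detected in 63 of 67 and 71 of 85 cells, and after thinning in 47.8% and 42.4%.

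Aqp4, the other basolateral water channel, had 234 and 27 UMIs in principal-like cells, 242 (212 to 275) and 29.8 (19.6 to 43.3) CPM. The log2 ratio was -2.997 (-3.65 to -2.44). Aqp4 was detected in 34 of 67 and 15 of 85 cells, 50.7% and 17.6%, and after thinning in 13.4% and 2.35%. The highest JPI-289 cell held 4.38 Aqp4 UMIs per 10000 and the highest control cell 14.97. The 5 cells with most Aqp4 held 51.7% and 59.3% of its UMIs, and without them Aqp4 was at 144 and 13.2 CPM. In neutrophil-like cells Aqp4 had 0 UMIs in either library.

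Aqp6, an intracellular channel of acid-secreting intercalated cells, had 23 and 15 UMIs in principal-like cells, and the interval of its log2 ratio held 0, -0.51 (-1.56 to 0.48).

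**Figure D2:**
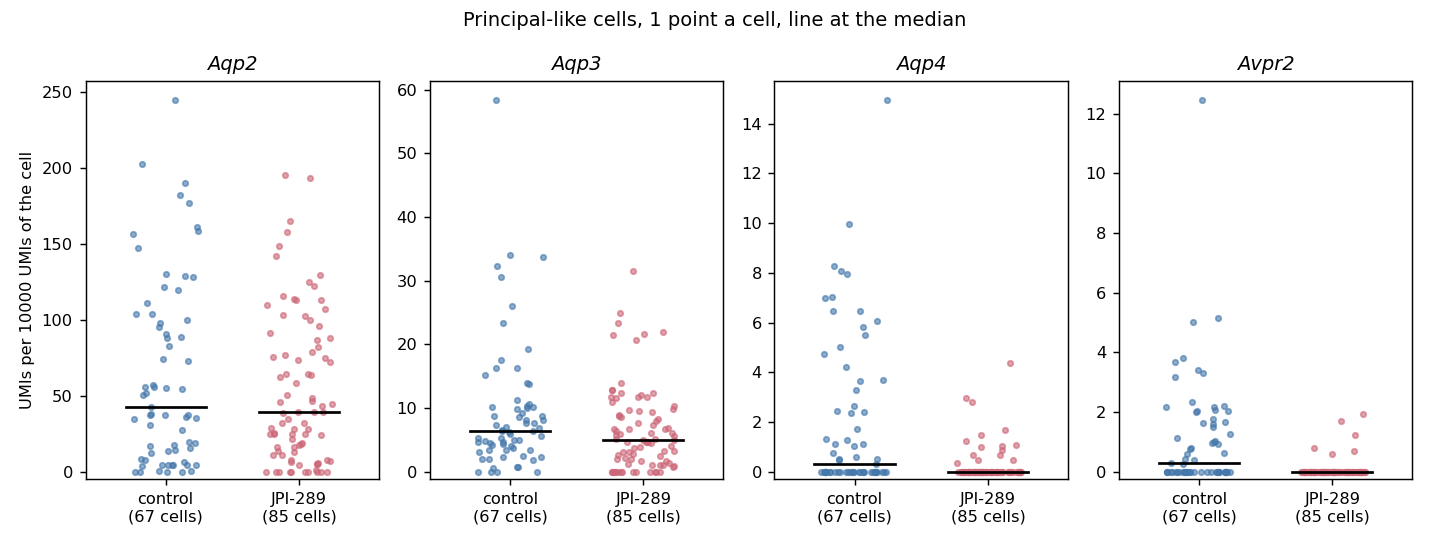
UMIs of Aqp2, Aqp3, Aqp4 and Avpr2 per 10000 UMIs of the cell in 67 control (blue) and 85 JPI-289 (red) principal-like cells, 1 point a cell, line at the median. The clouds overlap for Aqp2 and Aqp3, while most JPI-289 cells lie at 0 for Aqp4 and Avpr2.

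Within single cells, Aqp2 and Aqp3 were found together in 61 of 67 control and 67 of 85 JPI-289 principal-like cells. Of the cells with Aqp2, 35 of 63 control cells also held Avpr2, and 6 of 75 JPI-289 cells did. Aqp4 and Avpr2 occurred in the same cell in 25 control cells and 1 JPI-289 cell. These are counts of detected UMIs, and a gene at a lower level is also missed more often.

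Other genes of the principal cell moved along with Avpr2 and Aqp4. The class was named from 11 marker genes, which summed to 5481 and 2665 CPM and were each detected in both libraries. All 10 with at least 20 UMIs were lower in the JPI-289 library, with a median log2 ratio of -1.25. Hsd11b2, which shields the mineralocorticoid receptor from glucocorticoid, was at 1373 and 282 CPM, and Elf5, a transcription factor of these cells, at 48.6 and 13.2. Markers of intercalated cells summed to 893 and 485 CPM, with 5 of the 7 with at least 20 UMIs lower and a median log2 ratio of -0.64. Foxi1, their transcription factor, was at 79.5 and 8.83. Markers of CNT cells summed to 7315 and 7238 CPM, with 5 of 6 lower and a median log2 ratio of -0.66. DCT markers summed to 196 and 117 CPM and PT markers to 228 and 174. Summed markers of some other cells went the other way. Red blood cell markers had 36 and 1411 UMIs in all, and EC markers were at 68.2 and 161 CPM. Injured PT markers were at 122 and 212 CPM, though 1 of the 2 with at least 20 UMIs was lower. Thin limb markers were at 3504 and 5137 CPM. The part of these shifts in the values of Avpr2 and Aqp4 was not tested.

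A shallow cluster of 7 control and 290 JPI-289 cells, led by Sprr2f, Aqp2 and Fxyd4, was left unnamed since its scores for principal cell and neutrophil markers were close. Its JPI-289 cells held Aqp2 at 2461 (2315 to 2613), Aqp3 at 431 (372 to 498), Aqp4 at 39.2 (22.8 to 62.8) and Avpr2 at 16.1 (6.49 to 33.3) CPM. Aqp2 was found in 275 of these 290 cells. The Aqp4 and Avpr2 levels of this cluster overlapped in their intervals with those of JPI-289 principal-like cells and lay below those of control ones. With this cluster counted as principal-like, the log2 ratios were -0.48 for Aqp2, -0.52 for Aqp3, -2.86 for Aqp4 and -3.48 for Avpr2.

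Genes that act below the receptor were at closer levels in principal-like cells. Of 17 genes of vasopressin signalling, 12 had at least 20 UMIs, 1 was at least 2-fold lower and 0 higher. Their median log2 ratio was -0.35 against -0.08 over all genes. Beside this list and those that follow for principal-like cells, 13.5% of all genes there were at least 2-fold lower and 6.73% higher. Gnas, the stimulatory G protein that the receptor activates, was at 689 and 654 CPM, -0.07 (-0.24 to 0.09). Prkar1a and Prkar2a, regulatory subunits of protein kinase A, had log2 ratios of 0.53 (0.26 to 0.80) and 0.87 (0.32 to 1.46). Pde4d, a phosphodiesterase that degrades cyclic AMP, had 21 and 5 UMIs, -1.87 (-3.74 to -0.53), and Crem, a cyclic AMP responsive factor, 38 and 19, -0.89 (-1.78 to -0.07).

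Of 21 genes of water channel traffic, 0 were at least 2-fold lower and 1 higher in principal-like cells, with a median log2 ratio of 0.20. Stx3, a syntaxin of the apical membrane, had 34 and 89 UMIs, 1.47 (0.90 to 2.10), and Ezr, a linker of membrane and actin, was at 766 and 1519 CPM, 0.99 (0.86 to 1.12). Myh9, a non-muscle myosin, had a log2 ratio of 0.39 (0.18 to 0.59). Snap23 and Nsf, which serve vesicle fusion, had -0.98 (-2.08 to -0.02) and -0.93 (-2.04 to 0.04).

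Of 8 tonicity response genes, 6 were measured, 1 was at least 2-fold lower and 1 higher in principal-like cells, with a median log2 ratio of -0.11. Akr1b3, the aldose reductase that makes sorbitol, was at 152 and 65.1 CPM, -1.21 (-1.68 to -0.78), and Slc38a2, an amino acid transporter, at 161 and 352, 1.12 (0.85 to 1.41). Slc5a3, the myo-inositol transporter, had 52 and 51 UMIs, and Hspa4l, a heat shock protein, 33 and 21, both with intervals that held 0.

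Of 12 sodium and potassium channel and mineralocorticoid genes, 4 were at least 2-fold lower and 1 higher in principal-like cells, with a median log2 ratio of -0.54. Of these, 4 genes are also in the marker list of the class. The potassium channel Kcnj1 had 50 and 8 UMIs, -2.48 (-3.84 to -1.46), and the mineralocorticoid receptor Nr3c2 30 and 5, -2.38 (-4.21 to -1.11). The membrane proteins Fxyd4 and Atp1b1 had log2 ratios of -0.67 (-0.76 to -0.58) and -0.43 (-0.53 to -0.34). The kinase Sgk1 was at 176 and 373 CPM, 1.08 (0.82 to 1.36), and the sodium channel subunit Scnn1a at 276 and 415, 0.59 (0.36 to 0.82).

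In the proximal tubule, Aqp1, Aqp7 and Aqp11 were all lower in the JPI-289 library. PT-like cells were 1798 and 1361, and each PT-like cluster came nearly whole from 1 library, clusters 0, 1, 14, 16 and 25 from the control and 5, 8, 9 and 12 from the JPI-289 library, so a cluster may be a library and not a segment. Of the 5 members compared, 4 were at least 2-fold lower, against 23.4% of 11229 genes, and 0 at least 2-fold higher, against 8.53%. The 15 PT markers summed to 13818 and 13618 CPM, but 13 of them were lower in the JPI-289 library, with a median log2 ratio of -1.83. The 6 markers of injured PT summed to 855 and 8537 CPM. This list took part in the naming. Clusters 5, 8, 9 and 12 entered the class with the injured PT score leading and PT second, the control clusters with PT leading. The part of these shifts in the values of the members was not tested.

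Aqp1, the constitutive water channel of PT, had 732 UMIs in control and 94 in JPI-289 treated cells of the PT-like class. Its level was 90.1 (83.7 to 96.9) and 15.6 (12.6 to 19.1) CPM, a log2 ratio of -2.52 (-2.85 to -2.22), against a median of -0.19 over all genes. Aqp1 was detected in 19.3% and 5.36% of PT-like cells, and after thinning in 6.04% and 1.46%. Neutrophil-like cells held Aqp1 in 1.13% and 0.172% after thinning, at the median depths given above against 2234 and 1583 UMIs in PT-like cells.

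Clusters within the PT-like class spanned a wide range of Aqp1, and the JPI-289 clusters fell in or below the lower part of the control range. In the control, cluster 25 held 195 (174 to 218) Aqp1 CPM, cluster 0 held 89.1 (79.97 to 98.95), cluster 14 held 50.3 (26.01 to 87.9), cluster 16 held 35.96 (23.9 to 51.98) and cluster 1 held 19.7 (13.4 to 27.99). In the JPI-289 library, cluster 12 held 25.4 (19.7 to 32.1), cluster 5 held 10.6 (3.44 to 24.7), cluster 9 held 6.73 (3.76 to 11.1) and cluster 8 held 6.49 (1.77 to 16.6). The intervals of control cluster 1 and JPI-289 cluster 12 overlapped. Clusters 25 and 12 were the ones with most Slc7a13, an amino acid transporter of the last PT segment, at 24.95 and 55.2 CPM, and their Aqp1 intervals were far apart. Slc22a30, another marker of that segment, was at 39.3 CPM in cluster 25, 8.57 in cluster 12 and 121 in cluster 16. Markers of earlier PT segments scored 1.815 in cluster 25 and 0.448 in cluster 12, so these clusters may differ in segment too. Havcr1, the kidney injury molecule KIM-1, was at 384 CPM in cluster 25 and 853 in cluster 12.

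Aqp11, a channel of the endoplasmic reticulum that PT cells need, had 407 and 117 UMIs in PT-like cells, 50.1 (45.4 to 55.2) and 19.5 (16.1 to 23.3) CPM, a log2 ratio of -1.36 (-1.67 to -1.07). Over the clusters it ran from 79.8 (66.6 to 94.9) in cluster 25 to 16.5 (10.8 to 24.2) in cluster 1 of the control, the same ends as for Aqp1. In the JPI-289 library it ran from 25.7 (20.01 to 32.6) in cluster 12 to 11.4 (4.57 to 23.4) in cluster 8.

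Aqp7, an aquaglyceroporin of the last PT segment, had 138 and 33 UMIs in PT-like cells, 16.99 (14.3 to 20.1) and 5.49 (3.78 to 7.70) CPM, a log2 ratio of -1.61 (-2.23 to -1.07). PT-like cells held 94.5% of the Aqp7 UMIs in control cells and 63.5% in JPI-289 cells. Clusters 13 and 15, of 274 and 254 JPI-289 cells, stayed unnamed although the injured PT score led in both. They held a further 5 and 7 of the 52 Aqp7 UMIs of JPI-289 cells. With cluster 13 counted as PT-like, Aqp7 had a log2 ratio of -1.69. In the control it was at 22.8 (18.3 to 28.04) in cluster 0 and 17.5 (11.6 to 25.2) in cluster 25, which overlap. In the JPI-289 library it was at 12.98 (5.60 to 25.6) in cluster 8 and 2.98 (1.29 to 5.88) in cluster 12, from 8 UMIs in each. Clusters 0 and 8 scored 3.49 and 1.37 for markers of earlier PT segments and 0.427 and -0.113 for those of the last. Clusters 25 and 12 scored 2.45 and 1.58 for the last segment, so these Aqp7 levels did not single it out.

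Aqp3 had 148 and 21 UMIs in PT-like cells, 18.2 (15.4 to 21.4) and 3.49 (2.16 to 5.34) CPM, a log2 ratio of -2.36 (-3.12 to -1.72). The JPI-289 level lay below the 8.04 (4.28 to 13.7) of JPI-289 neutrophil-like cells, with overlapping intervals. With free RNA subtracted the log2 ratio was -2.55. Aqp2 in PT-like cells, at 12.9 and 10.3 CPM, was also below the 32.2 and 21.03 of neutrophil-like cells. Barcodes under 100 UMIs, which hold free RNA, had Aqp2 at 238 and 221 CPM and Aqp3 at 47.6 and 29.1.

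**Figure D3:**
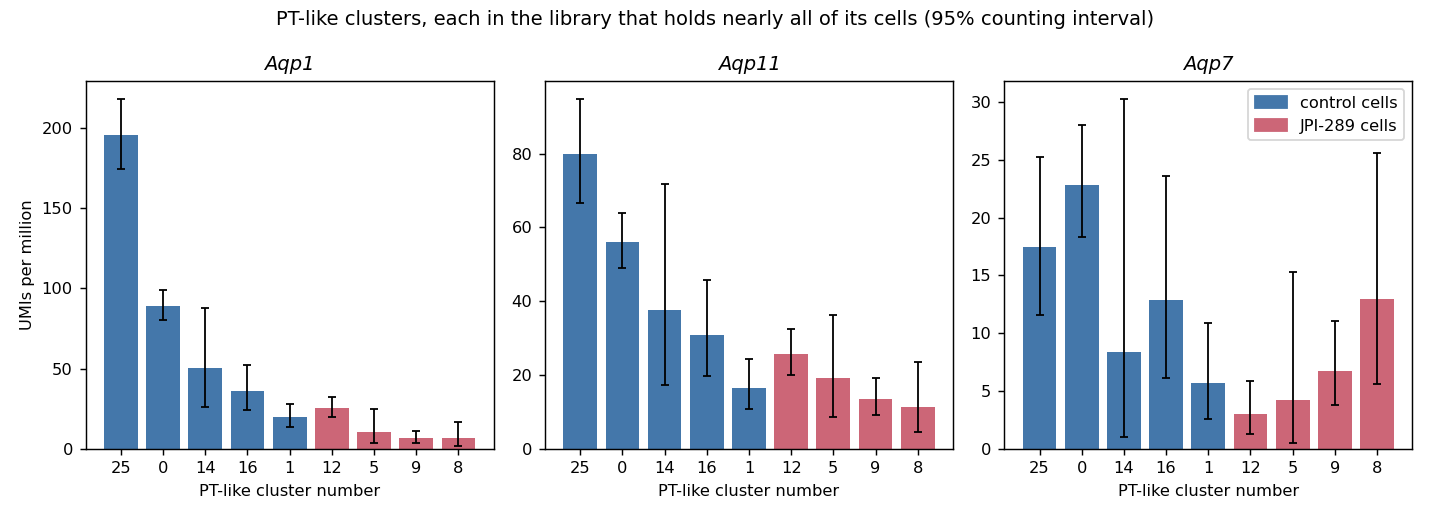
CPM of Aqp1, Aqp11 and Aqp7 in each PT-like cluster, in the library that holds nearly all of its cells, blue bars for control and red for JPI-289, with 95% counting intervals. Aqp1 is 195 in cluster 25 and between 6.49 and 25.4 in the JPI-289 clusters, and control cluster 1 lies within that range.

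Genes that work beside these channels in PT-like cells were mostly lower too. Of 14 transport neighbours of Aqp1, 9 were at least 2-fold lower and 1 higher, with a median log2 ratio of -1.51 against -0.19 over all genes. Beside this list and the glycerol list that follows, 23.4% of all genes in PT-like cells were at least 2-fold lower and 8.53% higher. Lrp2, Cubn and Slc34a1 of this list are also PT markers. Cubn and Lrp2, receptors for filtered protein, had -3.52 (-3.92 to -3.16) and -2.62 (-2.77 to -2.47). Fxyd2, a small membrane protein of the tubule, was at 3083 and 2849 CPM, -0.11 (-0.14 to -0.09). The phosphate transporter Slc34a3 had 14 and 55 UMIs, 2.37 (1.54 to 3.37).

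Of 9 glycerol metabolism genes in PT-like cells, 4 were at least 2-fold lower and 2 higher, with a median log2 ratio of -0.83. Gk, the glycerol kinase that traps glycerol, was at 489 and 55.7 CPM, -3.13 (-3.30 to -2.97), and Gpd1, a glycerol phosphate dehydrogenase, at 304 and 74.6, -2.03 (-2.18 to -1.88). Plin2, a coat protein of lipid droplets that is also in the injured PT list, was at 552 and 6319 CPM, 3.52 (3.47 to 3.56), and Pnpla2, a triglyceride lipase, at 114 and 475, 2.05 (1.95 to 2.16).

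In thin limb-like cells the summed Aqp1 was at a similar level in both libraries. These were 89 and 73 cells with 253 and 203 UMIs, 403 (355 to 456) and 413 (358 to 474) CPM, and the log2 ratio was 0.03 (-0.24 to 0.31). The 1 member compared there was not past 2-fold, against 12.5% of genes lower and 9.78% higher. Aqp1 was found in 26 and 17 of these cells, and after thinning in 17.5% and 17.6%. The 5 cells with most Aqp1 held 57.7% and 69.95% of it, and without them the levels were 234 and 153 CPM.

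In EC-like cells, 497 and 570, the summed Aqp1 was higher in the JPI-289 library, and most of it lay in 1 subcluster there. The counts were 888 and 1354 UMIs, 453 (423 to 483) and 788 (747 to 831) CPM, a log2 ratio of 0.80 (0.68 to 0.92). Of the 4 members compared in EC-like cells, 1 was at least 2-fold lower, against 18.5% of 9718 genes, and 0 at least 2-fold higher, against 5.24%. Aqp1 in descending vasa recta carries water out of the descending blood.

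The subcluster with the highest score for markers of arteries and vasa recta, of 18 control and 43 JPI-289 cells, held all 7 of these markers. In it Aqp1 had 261 and 1301 UMIs, 1571 (1386 to 1773) and 2939.9 (2782 to 3104) CPM, a log2 ratio of 0.90 (0.71 to 1.10). All other EC-like cells together held 627 and 53 UMIs, 349 (322 to 378) and 41.6 (31.1 to 54.4) CPM, a log2 ratio of -3.06 (-3.50 to -2.66), of the opposite sign. Of all genes in these other cells 18.1% were at least 2-fold lower and 5.86% higher, and in the subcluster 12.2% and 11.3%. Both values rest on few cells. A single control cell of 53920 UMIs held 397 of the 627, and without the 5 cells of each library with most Aqp1 the other EC-like cells were at 34.7 and 14.5 CPM. In the arterial or vasa recta subcluster the 5 richest control cells held 253 of 261 UMIs and the 5 richest JPI-289 cells 59.4% of theirs. Without them the subcluster was at 73.8 and 1480.1 CPM. Many of the other EC-like cells fell into subclusters of 1 library, so their ratio compares unlike mixtures of cells. A peritubular-scored subcluster held 180 control and 0 JPI-289 cells, and another 1 and 180. Most Aqp1 of the other EC-like cells in the control, 555 UMIs, lay in a subcluster that both libraries shared, of 69 and 77 cells. It holds the single rich cell and had 25 UMIs in the JPI-289 library. The subtype score that led in this subcluster was also that for arteries and vasa recta, at 1.21 against 0.154 for peritubular markers. The other EC-like cells thus include cells scored as arterial or vasa recta, and the contrast does not separate such cells from the rest. Also among the other EC-like cells, a subcluster of 12 control and 185 JPI-289 cells was led by hemoglobin and distal tubule genes and another, of 171 and 2, by PT genes. Red blood cell markers in EC-like cells summed to 119 and 1363 CPM, and thick ascending limb markers in the arterial or vasa recta subcluster to 12.04 and 617. Only 1 of the 9 thick ascending limb markers had at least 20 UMIs in that subcluster. The part of these sums in the Aqp1 values was not tested.

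Cells rich in Aqp1 were also counted, which describes these 2 libraries and compares no conditions. Cells with at least 10 Aqp1 UMIs per 10000, a limit set after seeing the data, were 20 of 497 and 25 of 570, 4.02% (2.48 to 6.15) and 4.39% (2.86 to 6.41). In the arterial or vasa recta subcluster they were 6 and 16, 33.3% (13.3 to 59.01) and 37.2% (22.98 to 53.3), and in the other EC-like cells 14 and 9, 2.92% (1.61 to 4.86) and 1.71% (0.784 to 3.22). Aqp1 was found at all in 39 EC-like cells of each library.

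**Figure D4:**
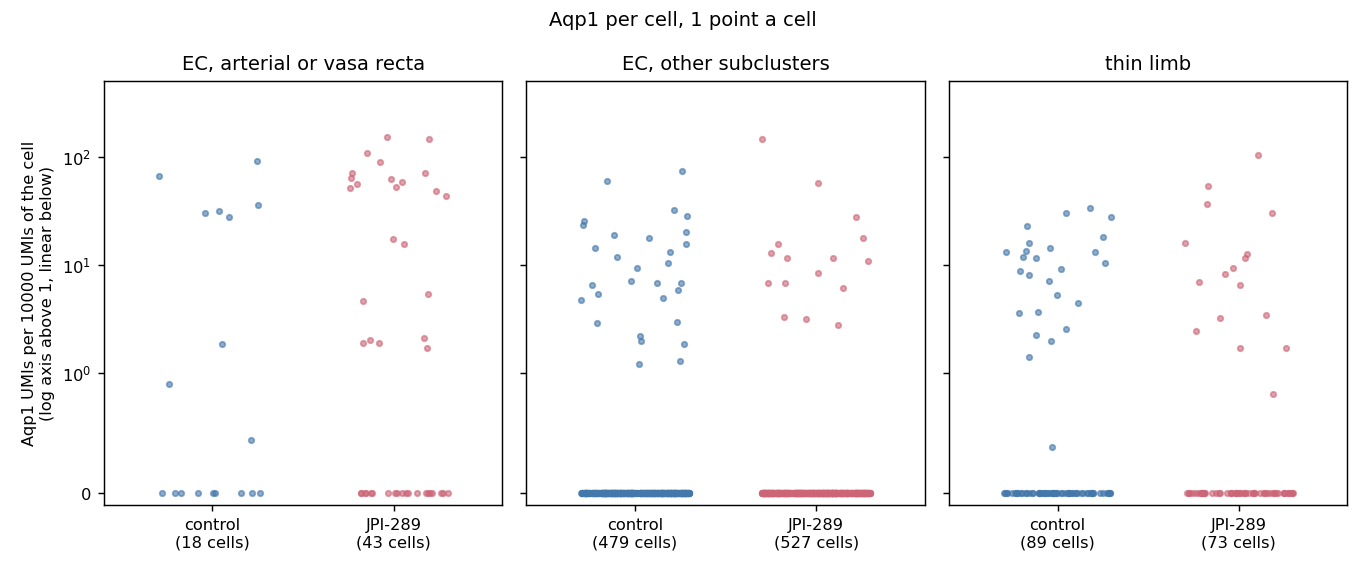
Aqp1 UMIs per 10000 UMIs of the cell (log axis above 1, linear below), 1 point a cell, control in blue and JPI-289 in red, in the arterial or vasa recta EC-like subcluster, the other EC-like cells and the thin limb-like cells. In the first panel 9 of 18 and 23 of 43 cells hold a UMI, and in the other panels most cells lie at 0.

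Aqp11 in EC-like cells had 32 and 7 UMIs, 16.3 (11.2 to 23.03) and 4.08 (1.64 to 8.40) CPM, a log2 ratio of -1.92 (-3.43 to -0.80). Barcodes under 100 UMIs held Aqp11 at 36.3 and 8.73 CPM, above the EC-like levels in both libraries. In stroma-like cells Aqp11 had 22 and 3 UMIs, and its log2 ratio held 0, -1.51 (-4.09 to 0.03), against 14.1% of genes at least 2-fold lower and 11.4% higher there.

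Along the rest of the distal nephron the members were closer between the libraries or sparse. In DCT/CNT-like cells, 274 and 350, Aqp2 was at 298 (258 to 342) and 238 (206 to 272) CPM, -0.33 (-0.62 to -0.04), and Aqp3 had a log2 ratio of -0.06 (-0.79 to 0.69). Of these 2 members, 0 were at least 2-fold lower, against 10.1% of genes, and 0 higher, against 7.29%. The Aqp2 ratio turned positive under other limits on cells, so no direction is given for it. In thick ascending limb (TAL-like) cells Aqp2 had 21 and 12 UMIs, at 23.9 and 10.1 CPM no more than in neutrophil-like cells, which should lack it. Its log2 ratio was -1.21 (-2.39 to -0.14), and -1.68 with free RNA subtracted, estimated at 1.82% and 1.95% of the UMIs of these cells, with 10.9% of genes at least 2-fold lower and 8.11% higher there. In neutrophil-like cells themselves Aqp2 had a log2 ratio of -0.64 (-1.55 to 0.40), where 10.3% of genes were at least 2-fold lower and 11.6% higher.

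Intercalated-like cells, 43 and 62, move acid and base and had the highest Aqp6 level of the named classes, from few cells. They held 49.1% of the Aqp6 UMIs of control cells and 28.6% of those of JPI-289 cells, and principal-like cells 41.8% and 42.9%. Of the 3 members compared, 2 were at least 2-fold lower, against 8.98% of 3150 genes, and 0 at least 2-fold higher, against 13.0%. Aqp6 had 27 and 10 UMIs, 134 (88.0 to 194) and 54.5 (26.1 to 100.2) CPM, -1.25 (-2.50 to -0.20), but it was found in 6 cells of each library. A single control cell held 11 of the 27 UMIs, and without the 5 richest cells of each library Aqp6 was at 7.07 and 7.02 CPM. Aqp2 was at 208 and 92.6 CPM, -1.14 (-2.07 to -0.32), in 7 and 6 cells. Principal cell markers in this class summed to 678 and 234 CPM and CNT markers to 14367 and 3651. All 4 CNT markers with at least 20 UMIs were lower. Intercalated markers summed to 11815 and 8135 CPM. Some sums went the other way, among them thin limb markers at 2023 and 3139 CPM and injured PT markers at 163 and 594. Yet 2 of the 3 thin limb markers with at least 20 UMIs were lower, with a median log2 ratio of -0.49. Only 1 injured PT marker had at least 20 UMIs. The part of these shifts in the values of the members was not tested. Aqp3 was at 252 (188 to 332) and 245 (179 to 328) CPM, -0.04 (-0.65 to 0.57).

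Urothelium-like cells were a further site of Aqp3, with 190 UMIs in 15 control cells and 24 in 3 JPI-289 cells, 376 (325 to 434) and 400.0 (256 to 595) CPM, and all 24 came from 1 cell. The log2 ratio there was 0.11 (-0.59 to 0.70), against 18.7% of genes at least 2-fold lower and 11.7% higher. In the control, Aqp3 was highest in principal-like cells, then in urothelium-like and intercalated-like cells, whose intervals overlap, and then in DCT/CNT-like cells. Aqp2 was highest in principal-like cells, then in DCT/CNT-like and intercalated-like cells, whose intervals overlap in the control. Summed Aqp1 in the control was highest in EC-like and thin limb-like cells, with overlapping intervals, both above PT-like cells. In the JPI-289 library EC-like cells lay above thin limb-like cells without overlap. The control order rests on few cells. Without the 5 cells with most Aqp1 in each class, control EC-like cells were at 104, thin limb-like at 234 and PT-like at 84.2 CPM. In the JPI-289 library EC-like cells were then at 356 and thin limb-like at 153 CPM. Red blood cells, whose membrane is rich in Aqp1 protein, held 2 Aqp1 UMIs in each library.

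**Figure D5:**
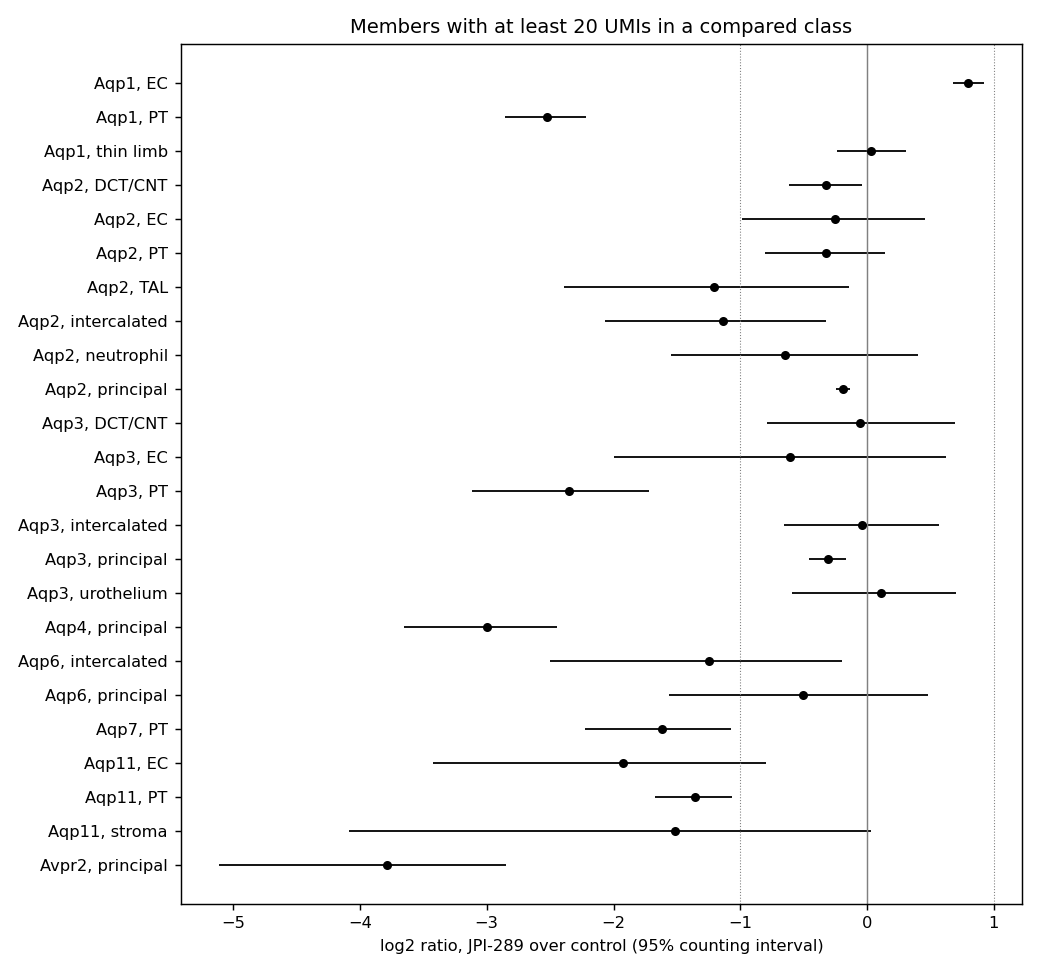
Log2 ratio of JPI-289 over control for the 24 pairs of gene and class with at least 20 UMIs, with 95% counting intervals, a solid line at 0 and dotted lines at 2-fold. Avpr2 and Aqp4 in principal-like cells and Aqp1 in PT-like cells lie farthest to the left, and Aqp1 in EC-like cells is the only one with an interval above 0.

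Over all cells, 4 members were at least 2-fold lower in the JPI-289 library, against 21.1% of 14536 genes, and 0 at least 2-fold higher, against 5.68%. The log2 ratios were -2.79 for Avpr2, -2.57 for Aqp4, -1.69 for Aqp11 and -1.58 for Aqp7. They were -0.74 for Aqp6, -0.47 for Aqp3, -0.29 for Aqp1 and -0.12 for Aqp2. Called cells held 1912 of the 3114 Aqp1 UMIs of all control barcodes, 61.4%, and 1672 of 1902, 87.9%, in the JPI-289 library. The Aqp1 ratio and shares over cells thus leave out unequal parts of the libraries. For Aqp7 called cells held 37.0% of the UMIs of all control and 36.1% of those of all JPI-289 barcodes. For Aqp11 these shares were 34.7% and 46.2%, so most UMIs of both genes lay outside the called cells. Over all barcodes, which need no cell calling or naming, Avpr2 was at -2.66, Aqp4 at -2.29, Aqp11 at -1.90 and Aqp7 at -1.34, and these 4 were at least 2-fold lower, against 20.6% of genes, while 0 were 2-fold higher, against 7.31%. Principal-like cells held 93.1% of the Aqp2 UMIs of control cells and 77.99% of those of JPI-289 cells. PT-like cells held 38.3% and 5.62% of the Aqp1 UMIs, and EC-like cells 46.4% and 80.98%.

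The genes whose pattern was most like that of a member were found over 26 levels by Pearson correlation of log2 levels, given in parentheses as a description. There was 1 level for each named class in each library with enough UMIs. Podocyte-like and lymphocyte-like cells of the control and platelet-like cells of both libraries were left out for too few. Avpr2 was most like Btc (0.96), Zfp458 (0.93) and Kcne1 (0.91), and the genes most like Aqp4 included Btc (0.93) and Avpr2 (0.89). Aqp2 was most like A930017K11Rik (0.92), Kcne1 (0.91) and Efna4 (0.91), and Aqp3 most like Tmem45b (0.92), Gata3 (0.90) and Spire2 (0.89). Aqp1 was most like Irx3 (0.90), Irx5 (0.89) and Afap1l1 (0.87). Aqp7 was most like Gm31641 (0.92), Slc22a28 (0.91) and Aadac (0.91), and Aqp11 most like C1qtnf12 (0.84), 2010204K13Rik (0.77) and Thpo (0.76). Kcne1, Tmem45b and Gata3 are among the markers that named the principal-like class. The levels share libraries and depth, and Aqp6 had too few UMIs for this.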

How the data were processed

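Dissociated kidney cells of 1 control and 1 JPI-289 treated mouse were captured with a 10x Chromium 5′ kit. Per the labels, the authors aligned the reads to mm10 and counted UMIs with Cell Ranger 5.0.1, and they deposited whole-number UMI counts per gene and barcode for all barcodes, without normalization. Cells were called here with a rank step and a test against empty barcodes (at least 500 UMIs, false discovery rate 0.01), and cells over 50% mitochondrial UMIs were removed, which took 546 control and 397 JPI-289 cells. Scrublet marked 2 of 8793 cells, too few to have worked, so doublets remain. Both libraries were clustered together (scanpy 1.11.5, leidenalg 0.10.2, 2000 variable genes, 30 components, resolution 2) without 16 aquaporin, vasopressin and oxytocin receptor genes. Clusters were named from marker lists by their leading score, by limits set after the clusters were seen, and 39 control and 818 JPI-289 cells stayed unnamed. Macrophage-like cells were not compared, since a cluster of them had a platelet marker and no macrophage marker among its 10 leading genes.

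UMIs were summed over the cells of a class and library, with 0.5 UMIs added for ratios, for genes with at least 20 UMIs over both libraries. No fit or p-value was possible with 1 library a group. The ratio step was run on simulated counts that held counting error alone. That run could not test the intervals for genes whose UMIs lie in few cells. Members and gene lists were chosen with earlier results of these data known. Genes named were the members, of each list the 2 with most UMIs and the 2 with the largest ratio in each direction, and the 3 genes most like each member. Some genes that this rule names are not reported here. Hsd11b2, Elf5, Foxi1, Slc7a13, Slc22a30 and Havcr1 were named after their values were seen. Alternatives changed cell calling, depth, mitochondrial and doublet limits, clustering, naming, denominator, weighting, free RNA and the value added.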

Additional observations from a re-analysis of the deposited data

Results flagged for a closer look

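The log2 ratio of Aqp1, JPI-289 over control, had opposite signs in the classes that hold most of it in the control. It was 0.80 in EC-like cells and -2.52 in PT-like cells, with counting intervals that do not overlap. With 1 library in each group the difference between these classes was not tested. The EC-like value rests on few cells, and 1 control cell held 397 of the 888 Aqp1 UMIs of its class. Without the 5 cells of each library with most Aqp1 it was 1.77. Without the arterial or vasa recta subcluster it was -3.06, so the sign also differed within EC-like cells.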

How the results depend on the processing

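Of the 24 log2 ratios of members, 11 were at least 2-fold lower in the JPI-289 library, and 10 of these stayed below 0 under every alternative run. The exception was Aqp11 in stroma-like cells, at 0.17 with equal weight of each cell. Of all genes, 8.98% in intercalated-like to 23.4% in PT-like cells were at least 2-fold lower. The 11 were picked for low ratios, and no share of all genes that stayed below 0 was had. Aqp2 in TAL-like cells was no higher than in neutrophil-like cells, and Aqp11 in EC-like cells lay below its level in free RNA. Of the 10, some came near 0, Aqp6 in intercalated-like cells at -0.01 and Aqp2 in TAL-like cells at -0.20. Avpr2 in principal-like cells ranged from -5.63 to -3.39, Aqp4 there from -3.39 to -2.86, and Aqp1 in PT-like cells from -2.74 to -1.99. Equal weight of each cell gave -1.99 for Aqp1 in PT-like cells, and -0.26 for Aqp2 and -0.52 for Aqp3 in principal-like cells. Clustering at resolution 1 gave -0.49 for Aqp2 and -0.52 for Aqp3 in principal-like cells, the shallow cluster added to them -0.48 and -0.52, and centring on all genes -0.11 for Aqp2. Aqp1 in EC-like cells was 0.64 when the 5% of cells scored most like doublets were left out, 0.97 when centred, 1.77 without the 5 cells of each library with most Aqp1, and -3.06 without the arterial or vasa recta subcluster. Aqp2 in DCT/CNT-like cells was 1.502 with the first step of cell calling alone and 0.52 with at least 1000 UMIs a cell. Except for the alternatives that leave out cells or clusters by their own construction, the cause was not tested. The alternatives on the shallow cluster, the EC-like subcluster, the PT-like naming and the 5 richest cells were chosen after seeing the data.

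The share of all genes past 2-fold depended on the minimum count. With at least 100 UMIs a gene in place of 20 it was 15.2% in place of 23.7% in EC-like cells, 12.6% in place of 22.3% in thin limb-like cells and 10.7% in place of 20.2% in principal-like cells. It was 13.2% in place of 22.0% in intercalated-like and 10.6% in place of 17.4% in DCT/CNT-like cells. No paired analysis was possible because each group holds 1 library, and for the same reason no replicate could be left out. Without the 5 richest cells no value was had for Aqp3 in urothelium-like cells, of which the JPI-289 library held 3.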

Other observations

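Aqp9, an aquaglyceroporin of leukocytes and liver, was found in neutrophil-like cells, with 11 UMIs in control and 40 in JPI-289 treated cells, 25.3 (12.6 to 45.2) and 24.7 (17.7 to 33.7) CPM. These were 11 of the 17 Aqp9 UMIs in control cells and all 40 in JPI-289 cells. Avpr1a, the vasopressin V1a receptor, had 12 UMIs in control and 3 in JPI-289 intercalated-like cells, of 23 and 7 in all cells. Its levels there, 59.3 (30.7 to 104) and 16.3 (3.37 to 47.8) CPM, overlapped in their intervals.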
